A study of Homo sapiens with 6 samples.

Results

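The numbered ZNF genes are the human genes named ZNF followed by a number, the bulk of the C2H2 zinc finger family. They were selected on a name and a measured level: the genes with a name of that form, with or without 1 further letter, and a mean over all 6 libraries of at least 5 TPM (transcript abundance per length, with every library brought to a common sum). The rule left 221 genes of the 557 numbered ZNF symbols and the 60623 named genes in the deposited table. Of the other symbols, 136 had a mean between 1 and 5 TPM and 200 a mean under 1 TPM, of which 60 were listed at 0 in every library. The choice used the level in both groups: 8 of the 221 genes had a control mean under 5 TPM and 6 a mean under 5 TPM in treated libraries. Just inside the limit were ZNF124 (5.04 TPM) and ZNF614 (5.06 TPM), and just outside it ZNF718 (4.93 TPM) and ZNF821 (4.87 TPM).

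RNA was sequenced from cells labelled RPMI-8226, an established human multiple myeloma line, at 48 h. Libraries 1 to 3 of the control group carry the label con, and libraries 1 to 3 of the treated group carry the label P17, which the series equates with the compound XYA1353. The series title ties the compound to NF-κB signalling. No dose, vehicle, genetic alteration or separate cultures are given in the labels used here, so each p-value covers library-to-library spread alone, and that spread may be only technical.

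A C2H2 zinc finger is a short fold held by a zinc ion, and a row of such fingers reads DNA, or in some proteins RNA, a few bases at a time. Many ZNF proteins also carry a KRAB domain, which binds the corepressor TRIM28 and through it brings histone methyltransferases, HP1 proteins and deacetylases to the bound DNA. KRAB zinc finger genes lie in tandem clusters, many of them on chromosome 19, and many of their products bind transposable elements. ZNF proteins without a KRAB domain include activators of transcription, splicing and ribosome factors, and ubiquitin or SUMO ligases.

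Most plasma cell markers were at or near 0 in these libraries. Of 10 plasma cell markers, 9 had a mean under 1 TPM, and CD38, TNFRSF17, JCHAIN and IGLC2 were listed at 0 in all libraries, while XBP1 had a mean of 94.8 TPM and rose from 68.1 ± 2.87 to 121.6 ± 22.5 TPM (SD, n = 3 each; log2 fold change 0.81, limma adjusted p = 0.00432). All 10 erythroid markers averaged 10 TPM or more, with fetal globin HBG2 at 5354 TPM and the erythroid factor GATA1 at 156 TPM. The summed erythroid markers ranged from 9684 to 12109 TPM in control libraries and from 5888 to 14930 TPM in treated libraries, and 1 of the 10 was called, as higher. The libraries are therefore named here only by their labels. Mitochondrial transcripts took 14.9 ± 0.261% of all TPM (SD, n = 3) in control and 10.7 ± 0.963% (SD, n = 3) in treated libraries, and their part in the changes below was tested only by rescaling the other genes. In bulk RNA of this kind, fewer cells of a type and less RNA per cell cannot be told apart.

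The ETS motif was the most frequent of 6 motifs searched in promoters of the numbered ZNF genes. RefSeq windows from 250 bases before to 50 after the start (GRCh38.p14) were matched to 188 of the 221 genes, in 234 windows. Searched on both strands, CCGGAAG, the core bound by ETS factors, was in 41% of these windows, against 20.2% of the 10680 windows of all genes averaging 5 TPM or more and 10.3% of all 35116 windows. The share was 50.8% for genes with a KRAB box and 31% for genes in which none was found. ACTACAA, part of the site bound by ZNF143, was in 5.98% against 3.73% and 2.77%, and AAGATGG, a core bound by YY1, was in 8.12% against 8.16% and 5.84%. The E-box CACGTG was in 8.12% against 10.2% and 7.26%, TGATGCA, a core of composite C/EBP-ATF sites, in 1.28% against 1.25% and 2.63%, and the kappaB consensus, bound by NF-κB, in 11.1% against 13.4% and 11.3%. One motif overlapped another 3 times in the windows of the numbered ZNF genes.

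Stretches of 150 bases just before the start are shown as examples, with motif letters in capitals. They come from 2 genes whose RNA was higher and 2 whose RNA was lower in treated libraries. These genes were picked by hand and do not stand for their directions. All are on the plus strand of GRCh38.p14. ZNF358 (chr19:7515953-7516102) holds the ZNF143 core, ZNF493 (chr19:21396983-21397132) the ETS core on the other strand, ZNF778 (chr16:89217553-89217702) a kappaB consensus and then the ETS core on the other strand, and ZNF330 (chr4:141220745-141220894) none of the 6 motifs in this stretch. The full window of ZNF330 does hold a kappaB consensus, outside the bases shown, and is counted with it below.
ZNF358: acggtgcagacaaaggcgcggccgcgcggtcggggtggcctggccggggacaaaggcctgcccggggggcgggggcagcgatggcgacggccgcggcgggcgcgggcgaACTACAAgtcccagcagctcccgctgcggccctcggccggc
ZNF493: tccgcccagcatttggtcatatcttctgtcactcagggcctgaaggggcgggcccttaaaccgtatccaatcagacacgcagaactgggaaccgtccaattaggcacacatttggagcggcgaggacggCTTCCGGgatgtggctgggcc
ZNF778: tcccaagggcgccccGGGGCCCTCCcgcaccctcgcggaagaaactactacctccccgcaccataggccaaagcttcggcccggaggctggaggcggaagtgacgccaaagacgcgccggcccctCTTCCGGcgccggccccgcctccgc
ZNF330: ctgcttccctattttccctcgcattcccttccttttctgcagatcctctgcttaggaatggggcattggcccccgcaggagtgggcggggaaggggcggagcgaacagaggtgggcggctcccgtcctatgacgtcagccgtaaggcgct

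The ETS motif was in a minority of the promoter windows of genes called in either direction, as in those of genes not called. The ETS core was in 39.3% of the 28 windows of genes called higher, 28.6% of the 21 windows of genes called lower and 42.7% of the 185 windows of genes not called. The kappaB consensus was in 3.57% of the windows of genes called higher, 19% of those called lower and 11.4% of those not called, against 13.4% for all genes averaging 5 TPM or more. The first of these shares is 1 of 28 windows and the second 4 of 21. All of these shares are given without a test, and a match is a run of letters and not a bound site.

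Most numbered ZNF genes did not pass the test between treated and control libraries. Changes are given as log2 fold changes of TPM + 1, treated minus control, and a gene is called when its limma p-value, adjusted by Benjamini-Hochberg over 13392 genes, is under 0.05. Of the 221 genes, 25 were called higher and 18 lower, 19.5% in all, where 31.4% of all genes tested were called, 15.4% higher and 16% lower. Among the 9899 genes with a mean of at least 5 TPM, the level the rule sets, 37% were called, 16.4% higher and 20.6% lower. The libraries of the 2 groups did not overlap for 37.6% of the numbered ZNF genes, 49 higher and 34 lower, against 47.6% of all genes, 23.8% in each direction. The 43 called genes were all among these. At an unadjusted p under 0.05 stood 74 of the 221 genes, against 42.8% of all genes. The median log2 fold change was 0.06, with the middle 50% between −0.16 and 0.26, and the median of all genes was 0.02. Only ZNF117 and ZNF778 changed by at least 1 on the log2 scale.

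The split between higher and lower calls moved with the scaling. Quantile normalization gave 23 higher and 23 lower and turned the median to −0.02, and rescaling without mitochondrial, immunoglobulin and rRNA genes gave 20 higher and 26 lower. Leaving out control library 1 gave 12 higher and 13 lower, control library 2 gave 20 and 7, and control library 3 gave 14 and 8. Leaving out treated library 1 gave 12 and 13, and treated library 2 gave 10 and 10. Of the 25 higher calls 7 and of the 18 lower calls 5 were kept in every leave-one-out fit and every other setting: ZNF117, ZNF266, ZNF358, ZNF493, ZNF579, ZNF76 and ZNF839 higher, and ZNF106, ZNF146, ZNF330, ZNF593 and ZNF639 lower.

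**Figure D1:**
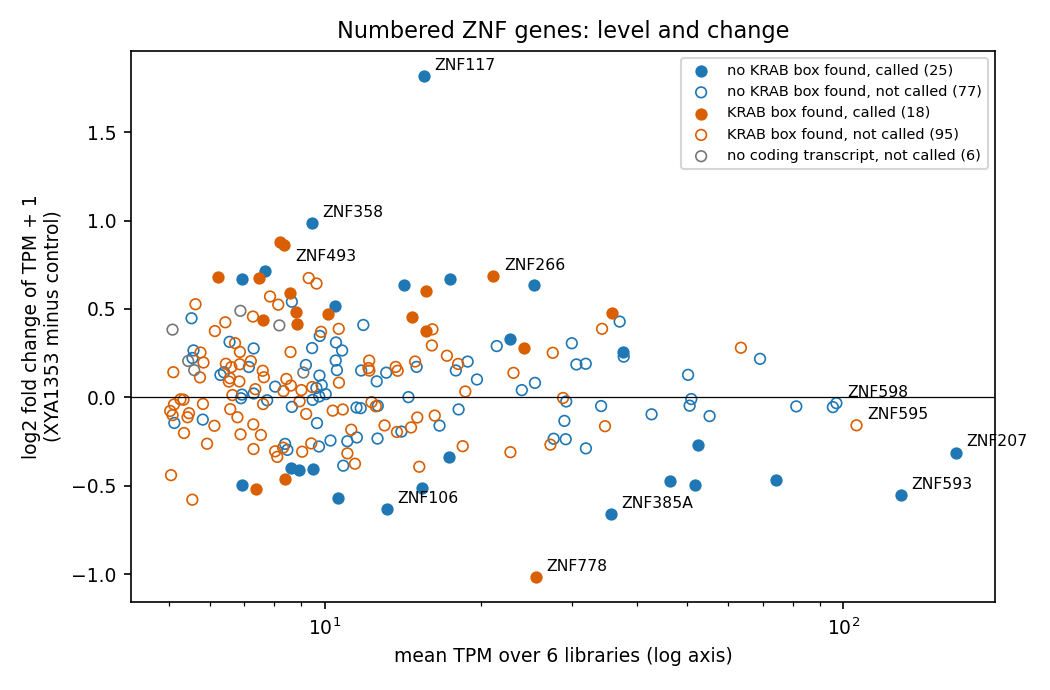
Each point is 1 of the 221 numbered ZNF genes, with its mean TPM over 6 libraries on a log axis and its log2 fold change of TPM + 1 (treated minus control). Filled points passed the limma test, 43 in all, and colour gives the KRAB box found in the coding sequence. Most points lie near 0, ZNF117 stands at 1.82 and ZNF778 at −1.02.

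The largest rise was in ZNF117, on chromosome 7, whose protein has 10 fingers by pattern and in which no KRAB box was found. Its control libraries had 5.39, 7.53 and 5.50 TPM and its treated libraries 31.9, 26.9 and 15.9 TPM. Treated library 3 was the lowest of its group and still above every control library. The log2 fold change was 1.82 (SE 0.25, limma adjusted p = 0.00269). ZNF117 overlaps ERV3-1, an endogenous retroviral envelope gene, on the same strand, and ERV3-1 rose from 12.1 ± 2.30 to 23.5 ± 4.15 TPM (SD, n = 3 each; log2 fold change 0.90, adjusted p = 0.00806). How the authors divided reads between the pair is not given in the sources used here.

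Rises kept in every fit were also found in 6 further genes. ZNF358 had 4.58, 7.13 and 6.39 TPM in control and 14.7, 13.3 and 10.6 TPM in treated libraries (log2 fold change 0.98, SE 0.18, adjusted p = 0.00694). ZNF493, a KRAB gene with 18 fingers, had 5.11, 5.95 and 5.81 TPM against 12.6, 11.3 and 9.44 TPM (0.86, SE 0.13, adjusted p = 0.00383). In both, all treated libraries stood above all control libraries, with treated library 3 the lowest. ZNF839 went from 5.81, 6.16 and 4.79 to 10.1, 10.3 and 8.89 TPM (0.71, SE 0.13, adjusted p = 0.00647), and it overlaps CINP on the opposite strand, which fell from a mean of 76.9 to 48.2 TPM. ZNF266, a KRAB gene on chromosome 19, went from 15.3, 17.3 and 15.4 to 27.2, 26.8 and 24.9 TPM (0.68, SE 0.09, adjusted p = 0.00231). The gap between its 2 groups was wider than the range of either. ZNF76, an activator closely related to ZNF143, went from 12.14, 13.35 and 13.99 to 22.9, 23.8 and 18.2 TPM (0.67, SE 0.12, adjusted p = 0.00677). ZNF579, named because its call was kept and not for its size, went from 8.35, 8.62 and 8.33 to 12.08, 11.96 and 13.43 TPM (0.51, adjusted p = 0.00756).

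The other large rises each lost their call in at least 1 fit with a library left out. ZNF211, a KRAB gene, had 4.54, 5.82 and 5.96 TPM in control and 11.8, 13.1 and 7.97 TPM in treated libraries (0.88, SE 0.19, adjusted p = 0.0135). Without control library 1 or treated libraries 1 or 2 its adjusted p was 0.0519, 0.0535 and 0.0559. ZNF429 (0.68, adjusted p = 0.0237) and ZNF530 (0.68, adjusted p = 0.026), both KRAB genes of chromosome 19, lost their calls in 4 such fits each. For ZNF429 these were the fits without control libraries 1 and 2 and treated libraries 1 and 2, with adjusted p from 0.0632 to 0.0867. For ZNF530 they were the fits without control libraries 1 and 3 and treated libraries 1 and 3, with adjusted p from 0.0553 to 0.0929. ZNF513 (0.67, adjusted p = 0.0146) lost its call without treated library 2 (0.0637), and ZNF524 (0.64, adjusted p = 0.0141) without treated libraries 1 and 2 (0.0535 and 0.0607). Of these 5 genes, ZNF429 was the one whose control mean lay under the 5 TPM limit.

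The largest fall was in ZNF778, a KRAB gene on chromosome 16. Its control libraries had 38.8, 34.9 and 29.1 TPM and its treated libraries 10.8, 19.7 and 20.2 TPM. Treated library 1 was the lowest, and the groups did not overlap. The log2 fold change was −1.02 (SE 0.23, adjusted p = 0.0156), and the call was lost without control library 1 (adjusted p = 0.063) or control library 2 (0.0559).

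Falls kept in every fit were in 5 genes, none with a KRAB box. ZNF593, whose yeast relative Bud20 helps export the large ribosomal subunit, had 170.7, 145.8 and 145.0 TPM in control and 100.8, 103.5 and 109.1 TPM in treated libraries (−0.55, SE 0.08, adjusted p = 0.00324). ZNF106, an RNA-binding protein, had 15.1, 17.9 and 15.8 against 10.1, 10.4 and 9.80 TPM (−0.63, SE 0.10, adjusted p = 0.00407). In both, the treated libraries lay close together and below all control libraries. ZNF146, a protein made almost only of fingers, had 86.5, 80.7 and 91.3 against 62.5, 64.8 and 58.6 TPM (−0.47, SE 0.07, adjusted p = 0.0042). ZNF639 had 63.5, 63.5 and 55.5 against 44.7, 39.6 and 44.4 TPM (−0.49, SE 0.09, adjusted p = 0.00603). ZNF330, a nucleolar protein, had 58.1, 50.1 and 53.8 against 40.2, 34.6 and 41.2 TPM (−0.47, SE 0.09, adjusted p = 0.00951). Each of the 3 had its lowest control library above its highest treated library.

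Other falls were less firm. ZNF143, which activates genes of small nuclear RNAs, had 17.8, 16.3 and 20.9 TPM in control and 13.1, 12.9 and 11.5 TPM in treated libraries (−0.51, adjusted p = 0.015), and without control library 3 its adjusted p was 0.0539. Its relative ZNF76 was higher in treated libraries. ZNF232 (−0.57, adjusted p = 0.0189), ZNF30 (−0.52, 0.0183), ZNF35 (−0.50, 0.0164) and ZNF202 (−0.46, 0.0431) lost their calls in 3 to 5 fits with a library left out. The adjusted p reached 0.0757 for ZNF232 without control library 3, 0.0709 for ZNF30 without control library 2, 0.0675 for ZNF35 without control library 3 and 0.141 for ZNF202 without control library 2. ZNF232 lost its call also without control library 2 and treated libraries 1 and 2, ZNF30 without treated libraries 1 and 2, ZNF35 without control library 2 and treated library 2, and ZNF202 without every library but treated library 1.

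**Figure D2:**
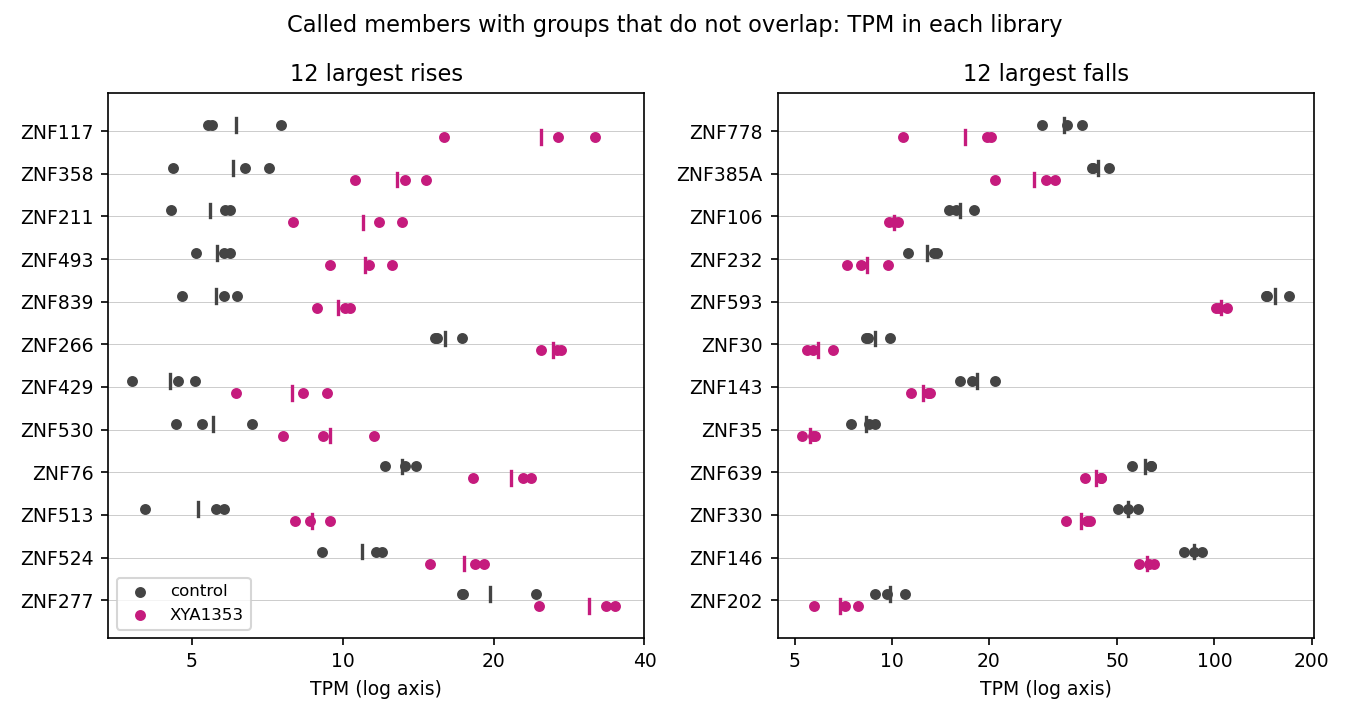
TPM of each library on a log axis for the 12 largest rises and the 12 largest falls among called numbered ZNF genes whose groups do not overlap. Grey points are control libraries, magenta points treated libraries, and vertical bars the group means. In every row shown the 2 groups are apart, and the gap is widest for ZNF117.

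Genes with a KRAB box had few lower calls, and their share of higher calls was close to that of all genes. A KRAB A box was searched by pattern in the translated coding transcripts and found in 113 of the 221 genes. It was not found in 102, and 6 had no coding transcript. The search misses diverged boxes, so the second class may hold KRAB genes. Of the 113 KRAB genes, 15 were called higher and 3 lower, 15.9% in all, with a median log2 fold change of 0.08. Their 13.3% of higher calls compares with 15.4% of all genes and 16.4% of genes averaging 5 TPM or more, and their 2.65% of lower calls with 16% and 20.6%. Lower calls were fewer at low levels, and the KRAB genes had a median level of 8.59 TPM. Of all genes tested from 5 to 10 TPM, 16% were called higher and 7% lower. Of the 102 genes with no box found, 10 were called higher and 15 lower, 24.5% in all. Their median log2 fold change was 0.01, and 9.8% were called higher and 14.7% lower. None of the 6 genes without a coding transcript was called by limma, and 1 had an unadjusted p under 0.05. The balance of calls among KRAB genes moved with the scaling: quantile normalization gave 12 higher and 7 lower, and rescaling without mitochondrial, immunoglobulin and rRNA genes 12 and 9. With the replicate number as a block the KRAB genes had 15 higher and 5 lower. Without 1 library the higher calls were 5 without control library 1, 9 without control library 2, 7 without control library 3, and 5 without treated library 1 or 2. The lower calls were then 2, 0, 2, 3 and 1. For the genes with no box found, the higher calls came to 5 without treated library 2, and the lower calls to 7 without control library 2, 6 without control library 3 and 9 without treated library 2.

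The KRAB genes together made up 1360 ± 40.8 TPM in control and 1440 ± 60.8 TPM in treated libraries (SD, n = 3 each). The genes in which no box was found made up 2427 ± 56.1 and 2335 ± 27.8 TPM, and all 221 genes 3823 ± 89.9 and 3820 ± 83.0 TPM. In TPM as deposited, the summed level of the whole set thus differed by less than the spread between libraries. Mitochondrial transcripts took 14.9% of TPM in control and 10.7% in treated libraries, which raises the TPM of other genes in treated libraries. Sums without mitochondrial transcripts were not computed, so an unchanged total cannot be read from these values. The difference between the classes was not tested.

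**Figure D3:**
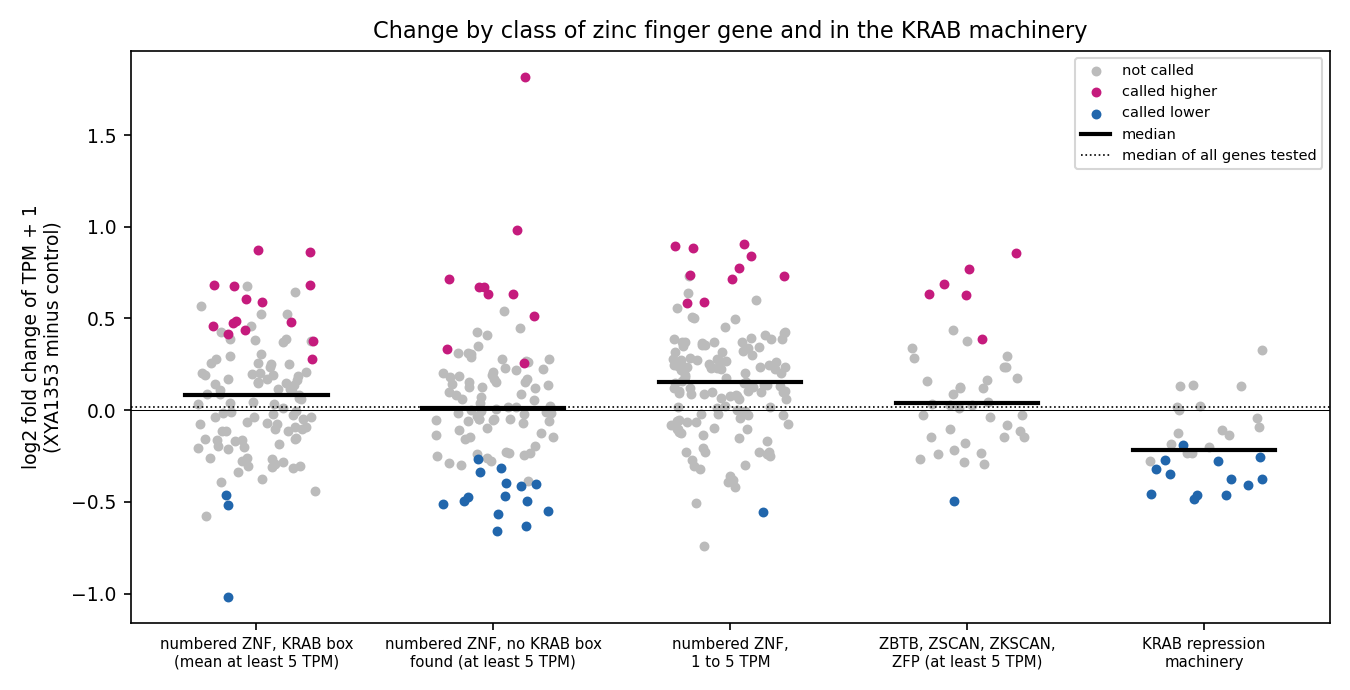
Log2 fold change of TPM + 1 (treated minus control) for each gene of 5 sets, with the median of each set as a bar and the median of all genes tested as a dotted line. Coloured points were called higher or lower by limma. KRAB genes have 15 higher and 3 lower calls, genes with no box found 10 and 15, and the KRAB repression machinery has 13 calls, all lower.

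Chromosome 19 carried 88 of the 221 genes, of which 15 were called higher and 4 lower, with a median of 0.09. These are 17% and 4.55%, against 15.4% and 16% of all genes and 16.4% and 20.6% of genes averaging 5 TPM or more. The 88 genes had a median level of 8.59 TPM, and the shares for all genes tested from 5 to 10 TPM were 16% and 7%. On the other chromosomes 10 of 133 numbered ZNF genes were called higher and 14 lower (7.52% and 10.5%), with a median change of 0.04. KRAB genes of chromosome 19 had 12 higher (18.8%) and 1 lower (1.56%) of 64, and KRAB genes elsewhere 3 (6.12%) and 2 (4.08%) of 49. Genes with no box found had 3 higher and 3 lower of 21 on chromosome 19 (14.3% each) and 7 (8.64%) and 12 (14.8%) of 81 elsewhere. The lower calls on chromosome 19 came to 8 under quantile normalization, with 12 higher, and to 10 under rescaling, with 13 higher, and the higher calls came to 6 without treated library 2, 7 without control library 1 or treated library 1 and 9 without control library 3. The lower calls came to 1 without control library 2 or treated library 2 and 2 without control library 3. Elsewhere, the higher calls came to 5 without control library 1, control library 3 or treated library 1 and to 4 without treated library 2, the lower calls were 6 without control library 2 or 3 and 9 without treated library 1 or 2, and rescaling gave 7 higher and 16 lower.

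Groups of neighbours on chromosome 19 differed in their median change, which was not tested. Genes lying within 1000000 bases of the next were joined, a definition chosen after values were seen, which gave 7 groups of at least 5 genes. The calls below stand beside 15.4% higher and 16% lower over all genes tested, and 16% and 7% over those from 5 to 10 TPM. With so few genes in each group, the counts do not set any group apart from these shares. The group from ZNF101 to ZNF100 had the highest median, 0.42, with 7 of 8 genes above 0 and 2 called higher. The group from ZNF628 to ZNF542P had a median of 0.31, with 7 of 9 genes above 0, 2 called higher and no KRAB gene. The largest, ZNF175 to ZNF765, had 21 genes, 4 called higher and a median of 0.10, with values from −0.44 to 0.59 and 12 above 0. The last group, ZNF749 to ZNF324, held 15 KRAB genes with a median of −0.04, 2 of them called higher. The group from ZNF358 to ZNF562 held called genes of both directions, 3 higher and 1 lower, with a median of 0.18. The group from ZNF146 to ZNF585A, 5 genes, also had 1 call in each direction and a median of −0.11. The group from ZNF576 to ZNF226 had 6 genes from −0.58 to 0.67 and a median of 0.11.

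**Figure D4:**
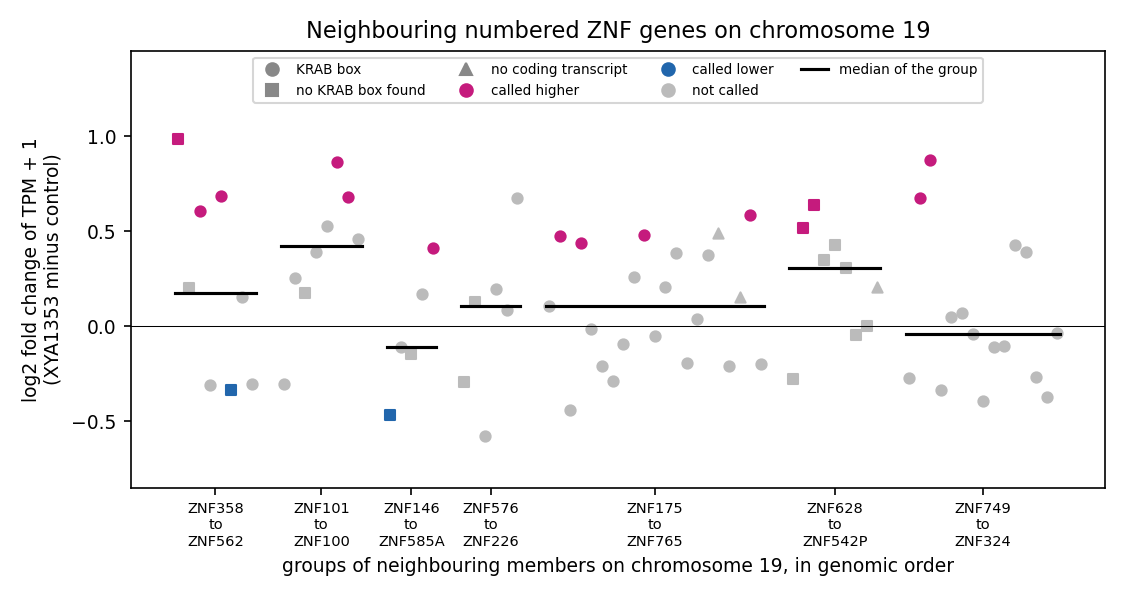
Log2 fold change of TPM + 1 (treated minus control) for numbered ZNF genes of chromosome 19 in 7 groups of neighbours, in genomic order, with the median of each group as a bar. Shape gives the KRAB class and colour the limma call. Group medians run from −0.11 to 0.42, and every group holds genes on both sides of 0.

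Among genes with roles in RNA handling and translation, all 13 listed were above the 5 TPM limit, and 3 rose, 5 fell and 5 did not pass the test. The share called, 61.5%, is of 13 genes with a median level of 37.5 TPM, and 45.4% of all genes at 20 TPM or more were called. ZNF207, which loads a kinetochore protein and acts in spindle assembly, was the highest of all 221 genes, with 170.2, 178.4 and 200.5 TPM in control and 143.0, 152.3 and 145.4 TPM in treated libraries (−0.31, adjusted p = 0.0179). Its call was lost without treated library 1 (adjusted p = 0.0541) and under quantile normalization (0.119). ZNF385A, which binds messenger RNA and the tumour suppressor p53, had 42.1, 47.2 and 41.6 against 20.8, 30.0 and 32.1 TPM (−0.66, SE 0.16, adjusted p = 0.0187), a call lost without any 1 of the control libraries (0.0546 to 0.0698). ZNF593, ZNF106 and ZNF330, given above, were the other falls. ZNF277, which binds a protein of the small ribosomal subunit, had 17.3, 24.3 and 17.4 against 34.9, 33.6 and 24.7 TPM (0.63, SE 0.17, adjusted p = 0.0304). Its highest control and lowest treated library were close, and its adjusted p was between 0.102 and 0.109 without control library 1 or 3 or treated library 1 or 2. ZNF326, which links elongation to splicing, rose from 20.09 ± 1.502 to 25.5 ± 0.767 TPM (SD, n = 3 each; adjusted p = 0.0244), a call lost without control libraries 1 and 3 or treated library 2 (0.0719 to 0.0856). ZNF451, a SUMO ligase, rose from 34.1 ± 1.91 to 41.0 ± 2.22 TPM (SD, n = 3 each; adjusted p = 0.0431), a call kept only without treated library 3, with 0.058 to 0.128 otherwise.

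The 5 others of this list lay close to their control levels or varied within groups. ZNF598, the ubiquitin ligase that marks collided ribosomes, had 98.1 ± 2.02 TPM in control and 95.9 ± 0.187 TPM in treated libraries (SD, n = 3 each; adjusted p = 0.685). ZNF622, whose yeast relative Rei1 matures the large ribosomal subunit, had 57.4 ± 7.84 and 53.1 ± 5.02 TPM (adjusted p = 0.52). ZNF638 (0.22, adjusted p = 0.118), ZNF346, which binds double-stranded RNA (0.15, 0.338), and ZNF830 (0.04, 0.835) had overlapping groups. Of the remaining highly expressed genes, ZNF595 had 112 ± 10.003 and 100.1 ± 3.61 TPM (adjusted p = 0.169) and ZNF706 −0.05 on the log2 scale, and neither passed the test.

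Among genes with roles in chromatin and transcription, 17 of 21 listed were above the limit, with 1 called lower, ZNF143, and 0 called higher by limma, where 2 of the 17 had an unadjusted p under 0.05 with a positive change and 4 with a negative one. The share called was 5.88%, against 31.4% of all genes, the median was −0.06, and 5 of the 17 changes were positive. ZNF687, part of a complex with ZNF592 and ZMYND8, had 11.3, 8.87 and 9.95 TPM in control and 15.5, 13.9 and 11.6 TPM in treated libraries (0.41, adjusted p = 0.0591), and with the replicate number as a block its adjusted p was 0.046. ZNF592 itself had 11.8 ± 0.936 and 11.3 ± 0.739 TPM (adjusted p = 0.706). ZNF410, an activator of the NuRD gene CHD4, had 29.7 ± 2.40 and 34.0 ± 2.19 TPM (adjusted p = 0.152). ZNF217, a partner of the CoREST corepressor, had overlapping groups at 12.1 ± 0.609 and 13.1 ± 2.24 TPM (adjusted p = 0.636). The other 12 ranged from −0.29 for ZNF512 to 0.27 for ZNF318, and none of the 12 was called.

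Of 12 genes known for silencing repeats or guarding imprinted loci, 4 were above the limit, 6 had between 1 and 5 TPM and 2 less. ZNF211, given above, was called higher. ZNF274, which brings the methyltransferase SETDB1 to the ends of other ZNF genes, had 32.1, 27.1 and 28.9 TPM in control and 48.0, 36.1 and 33.4 TPM in treated libraries. Its groups did not overlap and treated library 1 was the highest. The change was 0.39 (adjusted p = 0.0758), and with the replicate number as a block the adjusted p was 0.0304. ZNF586 (0.07, adjusted p = 0.693) and ZNF33A (−0.04, 0.858) had overlapping groups.

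The machinery through which KRAB proteins repress had a share of calls near that of all genes at its level, and its calls were falls. Of 30 listed genes (corepressor, methyltransferases, HP1, HUSH, NuRD, DNA methylation and SUMO), 13 were called lower, 43.3%, and 0 higher by limma, where 1 had a positive change with an unadjusted p under 0.05 and 15 a negative one. Their median level was 44.8 TPM, and of all genes at 20 TPM or more 45.4% were called, 28.9% lower and 16.5% higher. The median change was −0.22, against 0.02 over all genes −0.03 over genes averaging 5 TPM or more and −0.09 over those at 20 TPM or more. Quantile normalization gave 2 higher and 9 lower, and rescaling 0 and 16. Without control library 2 or treated library 2 the lower calls were 8, and without control library 3 they were 7. UHRF1, which guides maintenance DNA methylation, had 49.7 ± 0.613 TPM in control and 35.4 ± 4.78 TPM in treated libraries (SD, n = 3 each; −0.49, adjusted p = 0.0127). PPHLN1, a HUSH subunit (−0.46, adjusted p = 0.0106), and HDAC2, a deacetylase (−0.46, adjusted p = 0.0107), were the next largest. TRIM28, the KRAB corepressor, named after its values were seen, had 667 ± 43.9 and 513 ± 9.43 TPM (SD, n = 3 each; −0.38, adjusted p = 0.00459). SETDB1 (−0.28) and the HUSH genes MPHOSPH8 (0.14) and TASOR (−0.20) were not called. Of the 30 genes, 7 had a positive change.

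Level and finger number were only weakly ordered with the change. From 5 to 10 TPM 11 of 111 genes were called higher and 6 lower, from 10 to 20 TPM 8 and 4 of 64, and at 20 TPM or more 6 and 8 of 46. These shares, 15.3%, 18.8% and 30.4%, lay below the 23%, 30.1% and 45.4% of all genes tested at the same levels. Across the 221 genes Spearman's rho between mean TPM and log2 fold change was −0.10, and across the 215 genes with a coding transcript rho between finger number and log2 fold change was 0.0978. Both are across genes of the same 6 libraries and are descriptions. The median protein had 9 fingers (range 0 to 31), 12 in KRAB genes and 7 in those with no box found. Of the 38 genes with at least 15 fingers 7 were called higher and 2 lower (18.4% and 5.26%), and of the 63 with 10 to 14 fingers 7 and 3 (11.1% and 4.76%). Of the 75 with 5 to 9 fingers 7 were called in each direction (9.33%), and of the 39 with 0 to 4 fingers 4 higher and 6 lower (10.3% and 15.4%), against 15.4% and 16% of all genes.

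Of numbered ZNF genes below the limit, from 1 to 5 TPM, 8.09% were called, against 15.6% of all genes tested in that range. Of the 136 with a mean from 1 to 5 TPM, 10 were called higher and 1 lower, 7.35% and 0.735%, with a median of 0.15. Among the higher calls, ZNF497 and ZNF697 had control means under 1 TPM (0.663 and 0.85 TPM). They met the lower limit only through their treated libraries (2.02 and 2.08 TPM), so the limit itself favoured these rises. Of all genes tested in this range 12.6% were called higher and 2.98% lower, with a median of 0.17. Quantile normalization gave 4 higher and 7 lower, rescaling 8 and 2, and the higher calls were 4 without treated library 2, 5 without control library 1, control library 3 or treated library 1 and 6 without control library 2. The lower call was lost without control library 2 or 3. Genes of other zinc finger names, ZBTB, ZSCAN, ZKSCAN and ZFP, numbered 42 at 5 TPM or more, of which 6 were called higher and 1 lower. These are 14.3% and 2.38%, against 16.4% and 20.6% of all genes at 5 TPM or more. The median level of the 42 was 8.9 TPM, and all genes tested from 5 to 10 TPM had 16% and 7%. ZFP36, of the CCCH type, is among the 42 by its name and was not called, so the other 41, a set made after the data were seen, have the same 6 and 1. The higher calls among them came to 3 without control library 2, and the lower call was lost without control library 1 or 2 or treated library 1. ZBTB46 was the largest of these rises (0.85), and it, ZBTB22, ZKSCAN1, ZBTB1, ZBTB21 and ZBTB7B were named after their values were seen. ZBTB46 and ZBTB21 had control means under 5 TPM (3.63 and 4.59 TPM). They met the limit only through their treated libraries (7.38 and 7.66 TPM), so the limit itself favoured these rises. ZSCAN32 was the fall. No difference between these sets and the numbered ZNF genes was tested.

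Some of these genes may not be counted cleanly. Whole gene spans, introns included, were compared with those of other tested genes on either strand. Shared exons were not searched for. By span, 79 of the 221 genes overlap another tested gene, and so do 14 of the 43 called genes, shares not computed over all genes. Of these called genes, ZNF841 overlaps ZNF432 on the same strand (0.77), ZNF664 overlaps CCDC92 on the opposite strand (1.05) and ZNF232 overlaps AC012146.1 on the opposite strand (−0.35). Whether counting used the strand is not given in the sources used here, and reads shared between near-identical ZNF paralogs could be split by the authors' method, so the values of such genes are uncertain.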

How the data were processed

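The deposited values were TPM per gene for each of 6 libraries, computed by the authors. Per the labels' protocols, RNA came from a Qiagen RNeasy kit and libraries from a SMARTer mRNA kit. The submitters' processing notes name the mouse builds GRCm38 and mm10, but the 60623 named rows carry human Ensembl IDs. Aligner and counter: not given in the sources used here. The other 583 of 61206 rows are unnamed loci and were left out, as were 2 columns of group means. TPM keeps no read totals, so depth is unknown and no counting interval is given.

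Genes with a mean of at least 1 TPM were tested by limma 3.58.1 in R 4.3.3 on log2(TPM + 1), with a trended prior and Benjamini-Hochberg adjustment over all of them, called at an adjusted p under 0.05. Fold changes on this scale understate changes of low genes. The fit was run on simulated data with normal noise of the same spread for every gene. Such data are simpler than these libraries, so that run does not show how firm the calls are. Tables and figures used Python 3.11.15 with pandas 2.3.3 and matplotlib 3.10.9. The KRAB A box pattern, 1 mismatch allowed, and finger counts come from translated GENCODE coding transcripts, in place of the RefSeq proteins first intended. The pattern was found in 328 of 510 coding numbered ZNF genes and in 20 of 18788 coding genes without C2H2 fingers. Chromosomes came from GENCODE by Ensembl ID.

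Genes named were the 12 largest rises and 12 largest falls among called genes with groups that do not overlap, the 5 of highest mean, those of the role lists, those next to the 5 TPM limit and the 3 called cofactors of largest change. Others are named after their values were seen. The genes and lists were chosen with earlier results of these data known. Library numbers are in the labels. Deviations from the group mean correlated at 0.111, 0.114 and 0.133 for libraries with the same number, and at −0.116 to −0.002 for different numbers. Because deviations cancel within a group, the second set of values follows largely from the first and is no separate evidence of pairing. A fit with the number as a block was compared. Other alternatives were a pseudocount of 0.1, no filter or a 5 TPM filter on genes tested, quantile or median-of-ratios scaling, rescaling without mitochondrial, immunoglobulin and rRNA genes, no trend, other limits on the mean, and leaving out each library.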

Additional observations from a re-analysis of the deposited data

How the results depend on the processing

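TPM without read totals limits what can be said of precision for genes near 5 TPM. Without a filter on low values the numbered ZNF genes had 16 higher and 11 lower calls, KRAB genes 8 and 1, genes off chromosome 19 6 and 7, and those from 1 to 5 TPM 4 and 0. Under quantile normalization the median was −0.0235, with lower calls of 7 for KRAB genes, 8 for chromosome 19, 7 (4 higher) for genes from 1 to 5 TPM, and 2 for ZBTB, ZSCAN, ZKSCAN and ZFP genes, and 2 higher for the cofactors. After rescaling the lower calls were 9, 10 and 2 for the first 3 of these, and the median was −0.0038. Limiting the set to at least 10 TPM gave 14 higher calls and a median of −0.000719, and no trend gave 3 lower calls from 1 to 5 TPM. Among named genes, ZNF429, ZNF530, ZNF277, ZNF778, ZNF385A, ZNF232, ZNF202 and ZNF451 lost their calls with no filter (adjusted p 0.0513 to 0.103), and ZNF326 (0.0505) and ZNF451 (0.0946) after rescaling, the latter also with no trend (0.0686). The cause of these shifts was not tested. The median of all genes was 0.02, and −0.04 after quantile normalization or rescaling. Genes from 1 to 5 TPM have no value under the 5 TPM filter.

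With the replicate number as a block, the numbered ZNF genes had 29 higher and 19 lower calls, KRAB genes had 5 lower, and 39 of the 43 calls were kept, with ZNF841, ZNF585A, ZNF195 and ZNF664 lost. Of the genes named by the rule it changed the calls of ZNF687 and ZNF274 and no other.

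Leaving out 1 library gave 2608 to 4460 calls over all genes, 10 to 29 higher and 7 to 16 lower in the set, with a median of 0.0397 to 0.0981. Ranges were 5 to 18 higher and 0 to 3 lower for KRAB genes, 5 to 11 and 6 to 14 with no box found, 6 to 17 and 1 to 4 on chromosome 19, 4 to 12 and 6 to 12 elsewhere, 4 to 10 and 0 to 1 from 1 to 5 TPM, 3 to 7 and 0 to 1 for ZBTB, ZSCAN, ZKSCAN and ZFP genes, and 0 to 0 and 7 to 12 for cofactors. Genes near 0 changed sign: under quantile normalization ZNF598 (0.0749), ZNF706 (0.0442), ZNF586 (−0.0506), ZNF384 (0.0616) and ZNF131 (0.0250), after rescaling ZNF830 (−0.0255), and with a library left out ZNF706 (−0.0853 to 0.00508), ZNF217 (−0.0193 to 0.213), ZNF830 (−0.0983 to 0.128), ZNF384 (−0.0746 to 0.102), ZNF518A (−0.106 to 0.0873) and ZNF33A (−0.164 to 0.0339).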
